A study of Homo sapiens and Mus musculus with 12 samples.

Results

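The genes described here encode the collagens, the laminins, fibronectin and a few of their partners in the extracellular matrix. They are the protein-coding genes whose symbol is COL, a number, A and a number, or LAMA, LAMB or LAMC with a number, together with *FN1*, *SPARC*, *NID1*, *NID2*, *HSPG2*, *TNC* and *FBN1*. By this rule, 63 of the 63677 human gene identifiers and 62 of the 47729 mouse identifiers were members, out of 19322 and 21236 protein-coding genes. Gene counts came from 2 cell lines, the human triple-negative breast cancer (TNBC) line MDA-MB-231 and the mouse mammary carcinoma line 4T1, treated with ponatinib, an inhibitor of several tyrosine kinases, or with its solvent. Both lines are labelled wild type, epithelial and of breast origin, and were grown alone in dishes, with no stroma and no host cells. Ponatinib was given at 1 μM, or DMSO as the solvent, for 24 h, and each of the 4 groups had 3 libraries, 12 in all. Neither the labels nor the methods say whether replicates were separate cultures, so p-values measure the spread between these libraries, which may be technical.

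Collagens are trimers of chains wound into a triple helix, and laminins are cross-shaped trimers of an alpha, a beta and a gamma chain. Type IV collagen, laminins, nidogens and perlecan build the basement membrane, the thin sheet under epithelia, while fibrillar collagens, type VI collagen, fibronectin and tenascin-C fill the interstitial matrix between cells. In mammary epithelium the basement membrane anchors cells through integrins, and carcinoma cells can make part of the matrix themselves.

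Counts per library were 15012884 to 17301760 for MDA-MB-231 and for 4T1 17800675 to 18951493. Levels are given in CPM, the read counts normalised to library sizes that were scaled by the TMM method. Of all counts, the matrix genes took 0.399% to 0.417% with DMSO and 0.479% to 0.508% with ponatinib in MDA-MB-231, and 0.898% to 1.05% with DMSO and 0.625% to 0.731% with ponatinib in 4T1. The keratins *KRT8*, *KRT18* and *KRT19* were present in both lines, whereas *CDH1*, the epithelial cadherin, had 0 counts in the MDA-MB-231 DMSO libraries and a 4T1 level (mean ± SD of 3 libraries) of 830.5 ± 57.7 CPM with DMSO and 909 ± 58 CPM with ponatinib. Among 8 epithelial markers, 3 of 6 tested rose and 3 did not pass in MDA-MB-231, with a summed level of 1663 to 2036 CPM with DMSO and 2294 to 2859 CPM with ponatinib. There *KRT5* had 0 counts, and *EPCAM* and *KRT14* had means of 6.44 and 1.42 CPM with DMSO. In 4T1, 2 of 7 tested fell and 1 rose, with sums of 7892 to 9085 CPM with DMSO and 8034 to 8848 CPM with ponatinib. The 9 fibroblast markers summed to 1.75 to 2.06 CPM with DMSO and 9.94 to 12.2 CPM with ponatinib in MDA-MB-231, where *PDGFRB* alone made 0.451 ± 0.257 CPM with DMSO and 9.24 ± 1.3 CPM with ponatinib, *DPT* was at 0 and *DCN*, *LUM*, *THY1* and *FAP* had at most 0.064 CPM as a group mean. In 4T1, they summed to 2.89 to 5.03 CPM with DMSO and 1.43 to 1.74 CPM with ponatinib, with *Dcn*, *Lum*, *Thy1* and *Pdpn* at 0. Of the fibroblast markers, 1 of 2 tested rose in MDA-MB-231 and 2 of 2 fell in 4T1. The 7 endothelial markers summed to 4.64 to 5.79 CPM with DMSO and 3.66 to 6.57 CPM with ponatinib in MDA-MB-231, where *PECAM1* was at 0 and the 1 tested was not called. In 4T1 they went from 3.22 to 5.25 CPM with DMSO to 1.08 to 1.5 CPM with ponatinib, where the 1 tested, *Kdr*, fell. Leukocyte markers summed to 0.692 to 0.971 CPM with DMSO and 1.59 to 2.23 CPM with ponatinib in MDA-MB-231, where *PTPRC* and *LYZ* were at 0 and *CSF1R* rose, and to at most 2.44 CPM in any 4T1 library, where the 1 tested was not called. For comparison, 27.2% of all tested genes rose and 26.8% fell in MDA-MB-231, with 29.5% and 29.4% in 4T1. The part of these markers in the results was not tested. In such bulk RNA, fewer cells of a type and less RNA per cell cannot be told apart.

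In MDA-MB-231, the matrix genes rose more often than they fell. After the filter on low counts, 36 of 63 were tested, of which 17 were higher and 8 lower with ponatinib and 11 were not called. A gene was called at an adjusted p under 0.05 in the quasi-likelihood test of edgeR, with the adjustment of Benjamini and Hochberg over all 14610 tested genes. Among all tested genes, 54.0% were called, 27.2% higher and 26.8% lower. With total counts in place of the TMM scaling, 8 members were lower and 18 higher, when 3097 genes of all were lower and 4641 higher. The median log2 fold change was 0.31 over the tested matrix genes and 0.02 over all tested genes. DMSO and ponatinib libraries did not overlap for 26 of the 36, against 60.4% of all tested genes. The other 27 members had at most 13 counts in any library, and *COL10A1*, *COL6A5* and *COL14A1* had none.

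In 4T1, 31 of 62 were tested, of which 14 were lower and 11 higher, and 6 were not called. Here 59.0% of all 13286 tested genes were called, 29.4% lower and 29.5% higher. The excess of lower members was not kept with total counts (11 lower and 12 higher, when 2935 genes of all were lower and 4854 higher) or without ponatinib replicate 2 (12 and 12). The median log2 fold change was -0.26 over the tested matrix genes and -0.00014 over all. The groups did not overlap for 25 of the 31, against 63.4% of all tested genes, and the 31 untested members had at most 11 counts in a library, 8 of them none.

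Basement membrane genes moved in both directions in each line. In MDA-MB-231, 7 of the 17 tested were higher and 3 lower (27.2% and 26.8% of all tested genes), with a median log2 fold change of 0.14. The summed level was 2800 to 3120 CPM with DMSO and 3074 to 3244 CPM with ponatinib. In 4T1, 8 of 14 were lower and 4 higher (29.4% and 29.5% of all tested genes), with a median of -0.22. The sum was 5919 to 7007 CPM with DMSO and 4665 to 5466 CPM with ponatinib. *LAMB3* held 47.2% to 50.9% of the sum with DMSO and 26.7% to 28.0% with ponatinib in MDA-MB-231, and *Lama5* 23.6% to 28.0% in 4T1.

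Interstitial matrix genes were mostly higher in MDA-MB-231, where 9 of the 15 tested rose and 3 fell (27.2% and 26.8% of all tested genes). Their median log2 fold change was 0.75. Their summed level was 958 to 1002 CPM with DMSO and 1291 to 1346 CPM with ponatinib, led by *COL6A2* at 21.2% to 25.6%. In 4T1, 6 of 15 fell and 6 rose (29.4% and 29.5% of all tested genes), with a median of -0.31. There the sum went from 3144 to 3781 CPM with DMSO to 956 to 1217 CPM with ponatinib, and *Fn1* alone was 97.3% to 97.7% of it with DMSO and 91.4% to 92.9% with ponatinib. With total counts in place of TMM, the median of all genes shifted to 0.11 (MDA-MB-231) and 0.12 (4T1), and the class medians shifted with it.

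**Figure D1:**
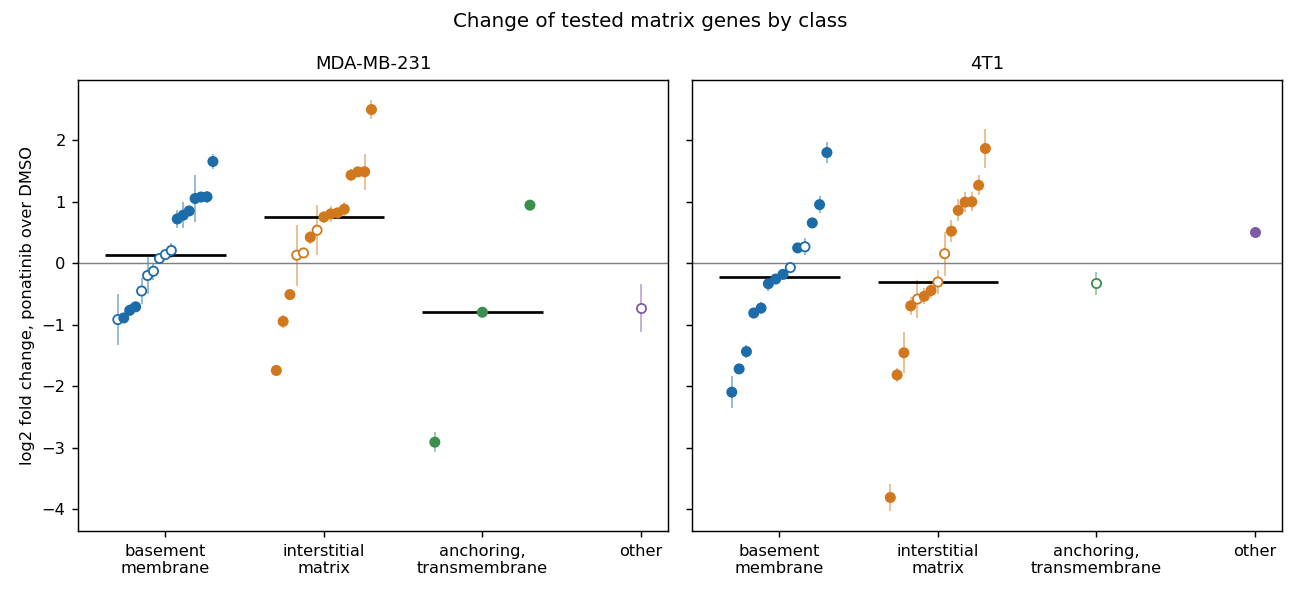
Each point is 1 tested gene, with the log2 fold change of ponatinib over DMSO and its SE on the vertical axis, for MDA-MB-231 on the left and 4T1 on the right. Filled points were called, open points were not, and black lines mark the class medians, for basement membrane and interstitial matrix 0.14 and 0.75 on the left, -0.22 and -0.31 on the right.

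Among the basement membrane genes, the alpha and beta chains of laminin-332, which epithelial cells use to fasten themselves to the basement membrane, were split in MDA-MB-231. *LAMB3* (ENSG00000196878, hg38 chr1:209614870-209652425), its beta chain, stood at 1589, 1326 and 1377 CPM with DMSO and 909, 852 and 863 CPM with ponatinib (log2 fold change -0.71, SE 0.084, adjusted p = 2.61e-05). Every ponatinib library was below every DMSO library. The alpha chain *LAMA3* went the other way, with 5.31, 4.86 and 4.91 CPM with DMSO and 9.02, 8.35 and 7.45 CPM with ponatinib (log2 fold change 0.72, SE 0.15, adjusted p = 0.00179), again with no overlap between the groups.

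In 4T1, both chains moved the opposite way. *Lama3* had 5.67, 6.95 and 6.07 CPM with DMSO and 1.18, 0.93 and 2.28 CPM with ponatinib (log2 fold change -2.10, SE 0.26, adjusted p = 9.74e-06). *Lamb3* was at 720.0, 598 and 629 CPM with DMSO and 803, 716 and 791 CPM with ponatinib (log2 fold change 0.25, SE 0.086, adjusted p = 0.023). *Lama3* separated the groups fully, while the *Lamb3* ranges overlapped, with the highest DMSO library above the lowest ponatinib library. The rise of *Lamb3* was lost without DMSO replicate 2 (0.19, adjusted p = 0.0873), DMSO replicate 3 (0.22, adjusted p = 0.0777), ponatinib replicate 1 (0.21, adjusted p = 0.0717) or ponatinib replicate 3 (0.23, adjusted p = 0.0763). Over all alternatives its adjusted p ran from 0.00146 to 0.0873.

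The stretch before a *LAMB3* start is shown because *LAMB3* had the highest level per length in MDA-MB-231 and fell. It covers 120 bases before 1 of the 3 annotated starts (RefSeq, GRCh38.p14, chr1:209651375-209651494, minus strand), 5′ to 3′, with an AP-1 site (TGACTCA) and a GC box (GGGCGG) in capitals. This start was chosen among the 3 because AP-1 letters lie before it, so the AP-1 site was a condition of the choice.
LAMB3 upstream: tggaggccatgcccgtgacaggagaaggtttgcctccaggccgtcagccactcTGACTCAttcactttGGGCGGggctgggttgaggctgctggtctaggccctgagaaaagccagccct

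The chains of the laminins with alpha 5, found in most adult basement membranes, divided in MDA-MB-231. The alpha chain *LAMA5* was at 387, 324 and 361 CPM with DMSO and 659.8, 621 and 647 CPM with ponatinib (log2 fold change 0.85, SE 0.081, adjusted p = 5.20e-06). *LAMB2*, the beta 2 chain, was at 392, 349 and 346 CPM with DMSO and 821, 726 and 742 CPM with ponatinib (log2 fold change 1.07, SE 0.083, adjusted p = 1.01e-06). Every ponatinib library lay above every DMSO library for both. By contrast *LAMB1*, the beta 1 chain, had 43.4, 48.2 and 49 CPM with DMSO and 26.2, 25.8 and 30.4 CPM with ponatinib (log2 fold change -0.77, SE 0.099, adjusted p = 4.95e-05), all ponatinib libraries being below DMSO. The gamma chain common to all of these, *LAMC1*, was at 201, 229 and 223 CPM with DMSO and 211, 228 and 248 CPM with ponatinib, and its overlapping groups did not pass the test (log2 fold change 0.075, SE 0.084, adjusted p = 0.477).

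In 4T1, 3 of these 4 chains fell. *Lamb1* dropped furthest, with 911, 859 and 791 CPM with DMSO and 286, 246 and 246 CPM with ponatinib (log2 fold change -1.72, SE 0.087, adjusted p = 9.03e-10). *Lamc1* stood at 965, 964 and 836 CPM with DMSO and 636, 542 and 488 CPM with ponatinib (log2 fold change -0.73, SE 0.099, adjusted p = 1.87e-05). Neither had overlapping groups. *Lama5* had 1884, 1696 and 1399 CPM with DMSO and 1530.0, 1191 and 1225 CPM with ponatinib (log2 fold change -0.34, SE 0.12, adjusted p = 0.0211), with ponatinib replicate 1 inside the range of the DMSO libraries. This fall of *Lama5* did not pass with total counts (-0.22, adjusted p = 0.11) or without DMSO replicate 1 (-0.24, adjusted p = 0.0516), ponatinib replicate 2 (-0.26, adjusted p = 0.0967) or ponatinib replicate 3 (-0.29, adjusted p = 0.095), and its adjusted p over the alternatives ran from 8.11e-05 to 0.11. *Lamb2* rose as in MDA-MB-231, with 183, 168 and 157 CPM with DMSO and 282, 253 and 265 CPM with ponatinib (log2 fold change 0.65, SE 0.079, adjusted p = 6.60e-06) and no overlap. So beta 1 fell and beta 2 rose in both lines, with a fall of the beta 1 chain that was larger in 4T1 (difference of log2 fold changes, 4T1 minus MDA-MB-231, -1.02, SE 0.13, adjusted p = 3.14e-06) and a rise of the beta 2 chain that was smaller there (-0.49, SE 0.12, adjusted p = 0.00219).

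Of the remaining laminin alpha chains, *LAMA1*, *LAMA2* and *LAMA4* were tested in MDA-MB-231 alone and none was called, at log2 fold changes of 0.20, -0.92 and -0.45. With the replicate number as a block, *LAMA1* (0.21, adjusted p = 0.0416, over the alternatives 0.0416 to 0.466) and *LAMA2* (-0.93, adjusted p = 0.0357, over the alternatives 0.0357 to 0.321) passed. *LAMA2* also passed with no filter (-0.95, adjusted p = 0.0408) and without ponatinib replicate 3 (-1.28, adjusted p = 0.0457). *LAMA2* had at most 2.20 CPM in a library. *LAMC3* and *LAMB4* were not tested.

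Type IV collagen, the network of the basement membrane, is made mostly of the alpha 1 and alpha 2 chains, whose genes lie head to head. In MDA-MB-231, *COL4A1* was at 34.3, 39.7 and 44.4 CPM with DMSO and 28.8, 37 and 42.1 CPM with ponatinib (log2 fold change -0.13, SE 0.14, adjusted p = 0.442), and *COL4A2* at 210.2, 200.3 and 221 CPM with DMSO and 229, 226 and 239.7 CPM with ponatinib (log2 fold change 0.14, SE 0.073, adjusted p = 0.131). *COL4A1* overlapped between the groups, while each ponatinib library was slightly above the DMSO libraries for *COL4A2*, which passed with the replicate number as a block (0.14, adjusted p = 0.00343, over the alternatives 0.00343 to 0.42) and with total counts (0.23, adjusted p = 0.0185). In 4T1, *Col4a1* was at 404, 425 and 386 CPM with DMSO and 348, 336 and 331 CPM with ponatinib (log2 fold change -0.26, SE 0.072, adjusted p = 0.00649). *Col4a2* had a log2 fold change of -0.18 (adjusted p = 0.0334). The ponatinib libraries were below the DMSO libraries for both 4T1 chains. With total counts neither 4T1 chain passed (-0.14, adjusted p = 0.0969 and -0.067, adjusted p = 0.412), and *Col4a2* did not pass with no filter (-0.18, adjusted p = 0.0696), without DMSO replicate 2 (-0.15, adjusted p = 0.11) or without ponatinib replicate 1 (-0.19, adjusted p = 0.053), 2 (-0.17, adjusted p = 0.132) or 3 (-0.18, adjusted p = 0.0786). Over all alternatives the adjusted p ran from 7.13e-04 to 0.0969 for *Col4a1* and from 0.0145 to 0.412 for *Col4a2*.

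The 126 bases between the starts of the human pair are shown since both genes share them (RefSeq, GRCh38.p14, chr13:110307158-110307283, read on the plus strand, toward *COL4A2*), with a CCAAT box and a GC box in capitals.
COL4A1 and COL4A2 between the starts: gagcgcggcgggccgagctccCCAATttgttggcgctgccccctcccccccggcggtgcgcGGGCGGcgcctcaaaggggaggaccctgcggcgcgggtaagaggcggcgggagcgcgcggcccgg

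The other type IV chains are those of specialised basement membranes. *COL4A5*, the alpha 5 chain, rose in both lines, with 2.19, 2.27 and 2.08 CPM with DMSO and 3.79, 3.19 and 4.22 CPM with ponatinib in MDA-MB-231 (log2 fold change 0.78, SE 0.21, adjusted p = 0.00816). The 4T1 libraries had 14.3, 19.1 and 12.6 CPM with DMSO and 31.1, 32 and 26 CPM with ponatinib (log2 fold change 0.95, SE 0.14, adjusted p = 5.09e-05), and neither line had overlapping groups. *COL4A4* had a log2 fold change of 1.05 in MDA-MB-231 (adjusted p = 0.0365) with at most 3.41 CPM and overlapping groups. It did not pass without DMSO replicate 1 (0.69, adjusted p = 0.11), DMSO replicate 2 (1.17, adjusted p = 0.058), ponatinib replicate 1 (0.90, adjusted p = 0.0665) or ponatinib replicate 3 (0.90, adjusted p = 0.106), with adjusted p-values over the alternatives of 0.00184 to 0.11. *COL4A3* and *COL4A6* were not tested in either line.

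Perlecan, the large heparan sulfate proteoglycan of the basement membrane, is encoded by *HSPG2*, which was at 48.7, 52.1 and 60.2 CPM with DMSO and 145, 157 and 204 CPM with ponatinib in MDA-MB-231 (log2 fold change 1.65, SE 0.13, adjusted p = 1.07e-06). In 4T1, *Hspg2* was at 313, 273 and 219.8 CPM with DMSO and 402, 285 and 283 CPM with ponatinib (log2 fold change 0.27, SE 0.14, adjusted p = 0.109). Only the human line had separate groups. In 4T1 the gene passed with the replicate block (0.26, adjusted p = 8.59e-04), total counts (0.38, adjusted p = 0.0263), no filter (0.27, adjusted p = 0.00323), and without DMSO replicate 1 (0.38, adjusted p = 0.0115) or ponatinib replicate 2 (0.35, adjusted p = 0.0474), its adjusted p running from 8.59e-04 to 0.607 over the alternatives. Of the exonic bases of *HSPG2*, 11.7% lay under another gene on the opposite strand.

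*Nid1*, nidogen-1, which bridges laminin and type IV collagen, fell in 4T1, with 502, 504 and 443 CPM with DMSO and 208, 162 and 165 CPM with ponatinib (log2 fold change -1.44, SE 0.10, adjusted p = 2.30e-08) and no overlap. In MDA-MB-231 it had 24 counts over the 6 libraries and was not tested. The multiplexin *COL18A1*, the source of endostatin, rose in MDA-MB-231, with 44.5, 38.5 and 38.3 CPM with DMSO and 92.3, 79.4 and 84.2 CPM with ponatinib (log2 fold change 1.08, SE 0.094, adjusted p = 2.43e-06) and separate groups. In 4T1 it was at 593, 566 and 536 CPM with DMSO and 548, 516 and 546 CPM with ponatinib, with overlapping groups and no call (log2 fold change -0.073, SE 0.074, adjusted p = 0.417), its sign turning with total counts (0.044). An opposite-strand gene, *SLC19A1*, covered 18.5% of the human and 12.7% of the mouse exonic bases of *COL18A1*. *Col15a1*, the other multiplexin, had a log2 fold change of 1.80 in 4T1 (adjusted p = 8.26e-07) at no more than 9.81 CPM.

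**Figure D2:**
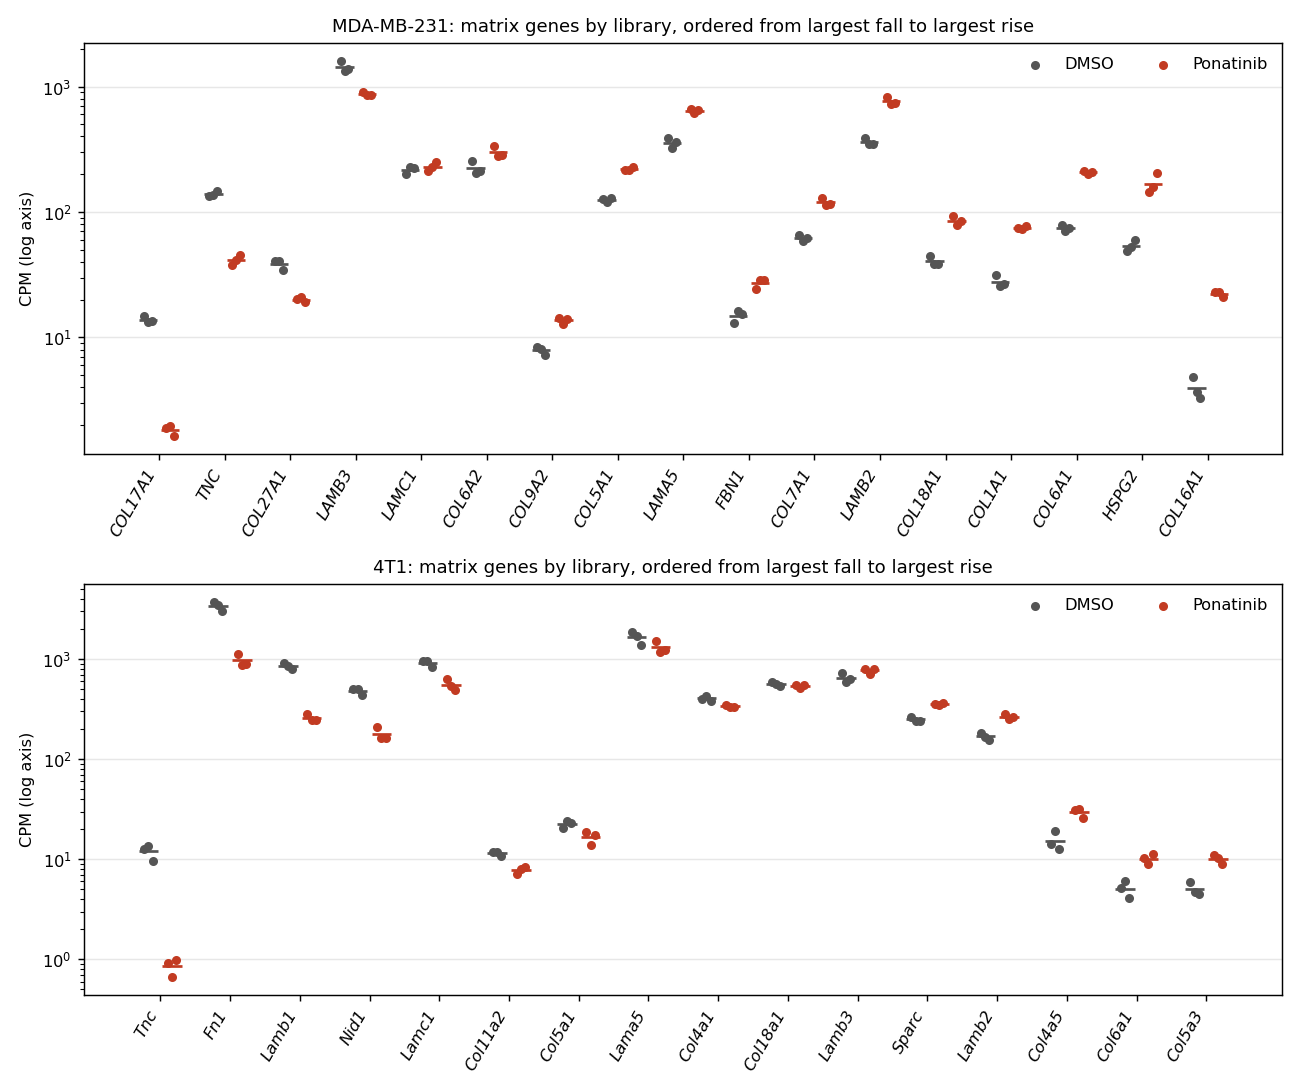
Level in each library of genes chosen for their change or their level per kilobase, as CPM on a log axis, grey for DMSO and red for ponatinib, with a bar at the mean of 3, for MDA-MB-231 above and 4T1 below. From left to right the genes shown run from the largest fall (*COL17A1* and *Tnc*) to the largest rise (*COL16A1* and *Col5a3*). Called genes with a mean under 10 CPM in both groups were left out, among them *Col12a1*, *Col15a1* and *Col1a1*, which rose more than *Col5a3*.

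Of the interstitial matrix, fibronectin, the glycoprotein that cells assemble into fibrils through integrins, moved in opposite directions in the lines. *FN1* (ENSG00000115414, hg38 chr2:215360440-215436073) was at 109, 121 and 139.6 CPM with DMSO and 184, 212 and 225 CPM with ponatinib in MDA-MB-231 (log2 fold change 0.75, SE 0.10, adjusted p = 9.05e-05). *Fn1* (ENSMUSG00000026193, GRCm39 chr1:71624673-71692419) was at 3693, 3489.7 and 3060.2 CPM with DMSO and 1131, 882 and 896 CPM with ponatinib in 4T1 (log2 fold change -1.82, SE 0.11, adjusted p = 4.66e-09). All ponatinib libraries were above DMSO in MDA-MB-231 and all were below it in 4T1, and the log2 fold changes differed between the lines (-2.64, SE 0.16, adjusted p = 3.46e-10).

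The 250 bases before the *FN1* start of each species are shown because the same gene moved oppositely in the lines. The human window is from RefSeq (GRCh38.p14, chr2:215436069-215436318, minus strand) and the mouse window from the canonical transcript of GENCODE vM39 (GRCm39, chr1:71692420-71692669, minus strand). They are printed 5′ to 3′ with CRE (TGACGTCA), CCAAT and GC box letters in capitals.
FN1 human: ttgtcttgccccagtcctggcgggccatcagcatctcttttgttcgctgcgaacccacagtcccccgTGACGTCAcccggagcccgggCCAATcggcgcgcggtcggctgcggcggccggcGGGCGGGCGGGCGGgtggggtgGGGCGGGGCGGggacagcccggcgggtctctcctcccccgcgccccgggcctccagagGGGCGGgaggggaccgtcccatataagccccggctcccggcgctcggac
Fn1 mouse: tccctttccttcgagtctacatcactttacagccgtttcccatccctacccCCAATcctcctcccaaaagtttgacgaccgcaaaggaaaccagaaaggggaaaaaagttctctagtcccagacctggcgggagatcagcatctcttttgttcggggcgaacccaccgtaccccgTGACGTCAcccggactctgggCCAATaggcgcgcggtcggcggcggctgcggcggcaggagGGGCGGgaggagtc

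Both windows held 1 CRE, followed by the same bases cccgga, with a CCAAT box downstream of it. The human window held 6 GC boxes, overlapping ones included, and the mouse window 1. These counts do not cover the same stretch, since the CRE lies nearer the end of the mouse window. The last human GC boxes lie farther past the CRE than the mouse window reaches. The aligned part of the windows was 142 bases long, of which 124 (87.3%) were identical.

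*TNC*, tenascin-C, a glycoprotein of wound and tumor matrix, fell in both lines. In MDA-MB-231 *TNC* (ENSG00000041982, hg38 chr9:115019575-115118207) was at 133, 136 and 146 CPM with DMSO and 37.9, 41.3 and 45 CPM with ponatinib (log2 fold change -1.74, SE 0.088, adjusted p = 4.00e-08). In 4T1 *Tnc* was at 12.8, 13.7 and 9.62 CPM with DMSO and 0.92, 0.672 and 0.976 CPM with ponatinib (log2 fold change -3.81, SE 0.22, adjusted p = 3.10e-09). No library of either treatment crossed into the range of the other, and the fall was larger in 4T1 (-2.13, SE 0.23, adjusted p = 4.76e-07). *FBN1*, fibrillin-1 of the microfibrils, rose in MDA-MB-231, with 13.1, 16.2 and 15.4 CPM with DMSO and 24.4, 28.9 and 28.9 CPM with ponatinib (log2 fold change 0.88, SE 0.12, adjusted p = 7.31e-05). Its groups did not overlap, and in 4T1 it had 32 counts in all and was not tested.

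Of 11 fibrillar collagens in each line 5 were tested. In MDA-MB-231, 3 of these rose and 1 fell (27.2% and 26.8% of all tested genes), and in 4T1, 3 rose and 2 fell (29.5% and 29.4% of all). *COL1A1*, the alpha 1 chain of type I collagen, was at 31.2, 25.7 and 26.5 CPM with DMSO and 75, 72.7 and 76.9 CPM with ponatinib in MDA-MB-231 (log2 fold change 1.43, SE 0.094, adjusted p = 3.37e-07). For 4T1 the values were 3.91, 3.56 and 2.79 CPM with DMSO and 8.23, 7.96 and 8.46 CPM with ponatinib (log2 fold change 1.26, SE 0.17, adjusted p = 1.41e-05). Every ponatinib library was above every DMSO library in both lines. Its partner chain *COL1A2* had 4 counts over the 6 MDA-MB-231 libraries and 0 over the 6 4T1 libraries, and *COL3A1* had at most 6 counts in a library.

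*COL5A1*, the main chain of type V collagen, which starts fibrils, was at 128, 120.4 and 129 CPM with DMSO and 216, 218 and 229 CPM with ponatinib in MDA-MB-231 (log2 fold change 0.82, SE 0.072, adjusted p = 2.74e-06). The 4T1 values were 20.8, 24.1 and 23.2 CPM with DMSO and 18.9, 13.8 and 17.3 CPM with ponatinib (log2 fold change -0.44, SE 0.13, adjusted p = 0.00717). It was higher in every ponatinib library of the human line and lower in every one of the mouse line. *Col5a3*, another type V chain, was at 5.95, 4.72 and 4.48 CPM with DMSO and 11, 10.3 and 8.89 CPM with ponatinib (log2 fold change 1.0, SE 0.16, adjusted p = 7.36e-05) in 4T1, all ponatinib libraries being higher, with 1 count in all in MDA-MB-231.

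*COL27A1*, a fibrillar collagen of cartilage, fell in MDA-MB-231, with 40.8, 40.7 and 34.3 CPM with DMSO and 20.2, 20.8 and 19.1 CPM with ponatinib (log2 fold change -0.95, SE 0.10, adjusted p = 1.26e-05). The mouse gene had 4.71, 5.0 and 5.74 CPM with DMSO and 9.05, 6.04 and 7.05 CPM with ponatinib (log2 fold change 0.52, SE 0.18, adjusted p = 0.0195). The groups were separate in both lines, in opposite order. Its rise in 4T1 did not pass without DMSO replicate 2 (0.50, adjusted p = 0.0532) or ponatinib replicate 1 (0.34, adjusted p = 0.124), with adjusted p-values over the alternatives of 0.00544 to 0.124. *COL11A2*, a chain of cartilage type XI collagen, was at 0.929, 0.777 and 0.818 CPM with DMSO and 2.4, 2.87 and 1.86 CPM with ponatinib in MDA-MB-231 (log2 fold change 1.48, SE 0.30, adjusted p = 0.00126). In 4T1 it was at 11.8, 11.8 and 10.7 CPM with DMSO and 7.16, 8.06 and 8.4 CPM with ponatinib (log2 fold change -0.54, SE 0.13, adjusted p = 0.00236), the groups again separate and in opposite order. *COL5A2* stayed under 1 CPM in MDA-MB-231 and was not called.

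Type VI collagen forms beaded filaments near cells from the alpha 1, alpha 2 and alpha 3 chains. In MDA-MB-231, *COL6A1* was at 78.9, 71 and 74 CPM with DMSO and 214, 202 and 209.8 CPM with ponatinib (log2 fold change 1.48, SE 0.076, adjusted p = 4.57e-08). *COL6A2* was at 256, 203 and 212 CPM with DMSO and 334, 279 and 286 CPM with ponatinib (log2 fold change 0.42, SE 0.10, adjusted p = 0.00449). In both cases the ponatinib libraries were all higher. Both rose in 4T1 too, *Col6a1* with 5.16, 6.0 and 4.1 CPM with DMSO and 10.2, 8.94 and 11.2 CPM with ponatinib (log2 fold change 0.99, SE 0.16, adjusted p = 1.15e-04) and *Col6a2* with 2.67, 2.78 and 3.17 CPM with DMSO and 5.27, 5.58 and 4.77 CPM with ponatinib (log2 fold change 0.86, SE 0.18, adjusted p = 8.90e-04). *COL6A3* had at most 1.86 CPM (MDA-MB-231) or 2.10 CPM (4T1) in a library and was called in neither, at log2 fold changes of 0.53 and -0.58.

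FACIT collagens sit on the surface of fibrils. The largest rise among the tested members in MDA-MB-231 was that of *COL16A1*, at 4.84, 3.69 and 3.27 CPM with DMSO and 22.9, 22.8 and 20.8 CPM with ponatinib (log2 fold change 2.49, SE 0.15, adjusted p = 1.67e-07), with separate groups. In 4T1 it was at 4.37, 5.39 and 4.7 CPM with DMSO and 3.89, 3.2 and 4.61 CPM with ponatinib, with overlapping groups (log2 fold change -0.31, SE 0.19, adjusted p = 0.175). *COL9A2*, of cartilage fibrils, was at 8.42, 8.03 and 7.3 CPM with DMSO and 14.3, 12.9 and 14.1 CPM with ponatinib in MDA-MB-231 (log2 fold change 0.80, SE 0.13, adjusted p = 2.29e-04), every ponatinib library being higher, and had 0 counts in 4T1. *COL12A1*, found on type I fibrils, did not pass in MDA-MB-231 (log2 fold change 0.17, adjusted p = 0.134), but passed with the replicate block (0.16, adjusted p = 0.0092) and without ponatinib replicate 1 (0.23, adjusted p = 0.0332), over the alternatives 0.0092 to 0.412. In 4T1 it was called higher (1.86, adjusted p = 1.80e-04) at no more than 2.40 CPM. *Col20a1* was called lower in 4T1 (-0.70), and *Col9a3* was not called. The short-chain collagen *COL8A1* was called lower in both lines, at log2 fold changes of -0.51 and -1.46, with at most 1.97 CPM in a 4T1 library.

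Among collagens that fix cells to the matrix, *COL17A1*, a transmembrane collagen of hemidesmosomes, had the largest fall in MDA-MB-231, with 14.8, 13.1 and 13.5 CPM with DMSO and 1.89, 1.98 and 1.64 CPM with ponatinib (log2 fold change -2.91, SE 0.16, adjusted p = 8.08e-08) and no overlap. The transmembrane *COL13A1* also fell there (log2 fold change -0.80, adjusted p = 4.11e-06). *COL7A1*, the collagen of anchoring fibrils, rose, with 65.9, 58.6 and 61.8 CPM with DMSO and 129, 114 and 115 CPM with ponatinib (log2 fold change 0.94, SE 0.083, adjusted p = 2.81e-06) and separate groups. In 4T1, *Col17a1* had 5 counts, *Col13a1* had 0, and *Col7a1* was not called (log2 fold change -0.33, SE 0.19, adjusted p = 0.151). *Sparc*, a matricellular protein that binds collagen, rose in 4T1, with 266, 243 and 240.1 CPM with DMSO and 358, 346 and 363 CPM with ponatinib (log2 fold change 0.51, SE 0.073, adjusted p = 3.17e-05) and no overlap. In MDA-MB-231 it was at most 1.59 CPM and was not called (log2 fold change -0.73, SE 0.39, adjusted p = 0.135), but passed without DMSO replicate 2 (-1.05, adjusted p = 0.0318), over the alternatives 0.0318 to 0.351.

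Levels were compared between genes per kilobase of exon, and the 5 with the highest mean over both treatments are given for each line. Exon length was merged over all annotated transcripts of a gene, and the ranks depend on it. It was 19271 bases for human *COL4A2* and 7179 for mouse *Col4a2*. In MDA-MB-231, *LAMB3* came first, with a mean of 308 CPM per kilobase with DMSO and 188 with ponatinib. *LAMB2* followed with 52.8 CPM per kilobase with DMSO and 111 with ponatinib, then *COL6A2* with 41.9 CPM per kilobase with DMSO and 56.1 with ponatinib. *LAMA5* had 25 CPM per kilobase with DMSO and 45 with ponatinib and *LAMC1* 25.8 CPM per kilobase with DMSO and 27.1 with ponatinib, whose DMSO values lay within 1 SD of each other. In 4T1, *Fn1* was the first with DMSO and the fifth with ponatinib, with 216 CPM per kilobase with DMSO and 61.2 with ponatinib. *Lama5* had 145 CPM per kilobase with DMSO and 115 with ponatinib, *Lamb3* 78.9 CPM per kilobase with DMSO and 93.6 with ponatinib and *Col18a1* 80.0 CPM per kilobase with DMSO and 76 with ponatinib, the last pair being within 1 SD of each other with DMSO. *Sparc* had 58.5 CPM per kilobase with DMSO and 83.4 with ponatinib. With DMSO alone, *Lamc1* (81.4 CPM per kilobase) was above *Col18a1*, *Lamb1* (79.6) above *Lamb3*, and *Nid1* (64.4) above *Sparc*. The order of the level per length changed with treatment in both lines. In 4T1 *Lama5* stood first with ponatinib, while in MDA-MB-231 the first gene was the same under both treatments. Below it, *COL6A1* went from 13.5 CPM per kilobase with DMSO to 37.7 with ponatinib, where it was above *LAMC1*.

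**Figure D3:**
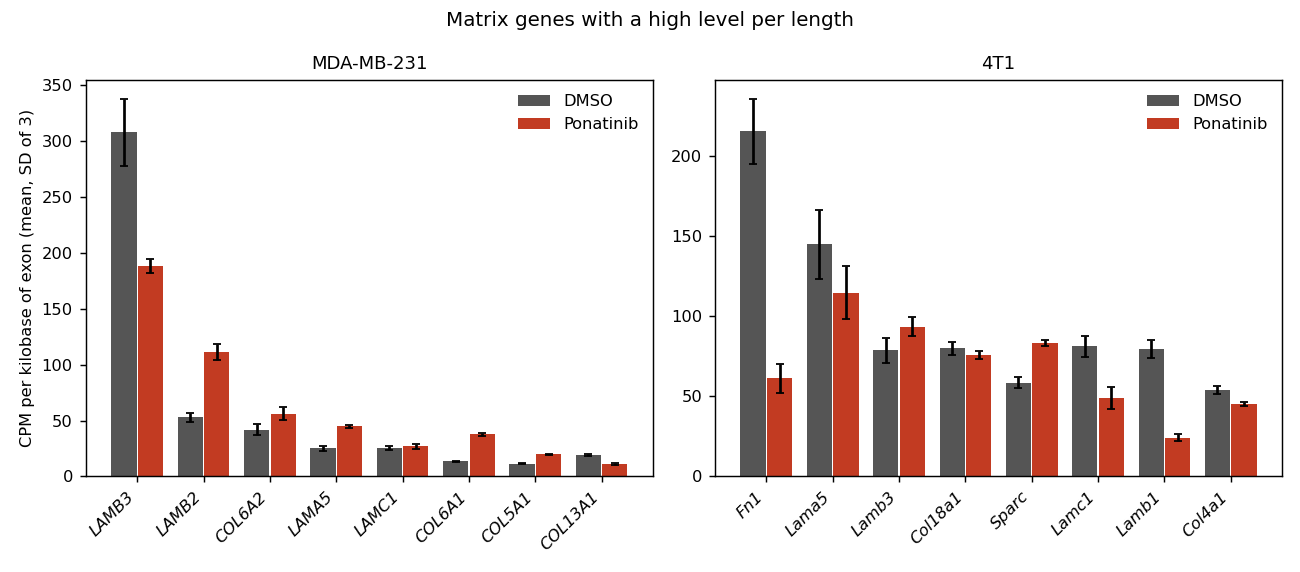
Mean CPM per kilobase of exon of 8 matrix genes with a high mean level per length, for MDA-MB-231 on the left and 4T1 on the right, grey for DMSO and red for ponatinib, with the SD of 3 libraries. *LAMB3* is first in MDA-MB-231 (308 with DMSO, 188 with ponatinib), and *Fn1* falls from 216 to 61.2 in 4T1.

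Counts of chains that share a trimer were set against each other library by library, with 3 ratios tested by exact two-sided permutation, for which 0.1 is the smallest p that 3 against 3 libraries allow. *COL6A1* over *COL6A2* in MDA-MB-231 was 0.309, 0.349 and 0.349 with DMSO and 0.640, 0.725 and 0.735 with ponatinib (exact permutation p = 0.1), without overlap. For *COL4A1* over *COL4A2* the ratio was 0.187 ± 0.0210 with DMSO and 0.155 ± 0.0259 with ponatinib in MDA-MB-231 (SD, n = 3, exact permutation p = 0.3), overlapping, whereas 4T1 had 1.45 ± 0.0210 and 1.38 ± 0.0316 (SD, n = 3, exact permutation p = 0.1), not overlapping. None of the 3 could reach a threshold of 0.05, before or after adjustment for 3 ratios. *COL1A1* over *COL1A2* in both lines and *Col6a1* over *Col6a2* in 4T1 had fewer than 50 counts of a chain in some library and were not computed.

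**Figure D4:**
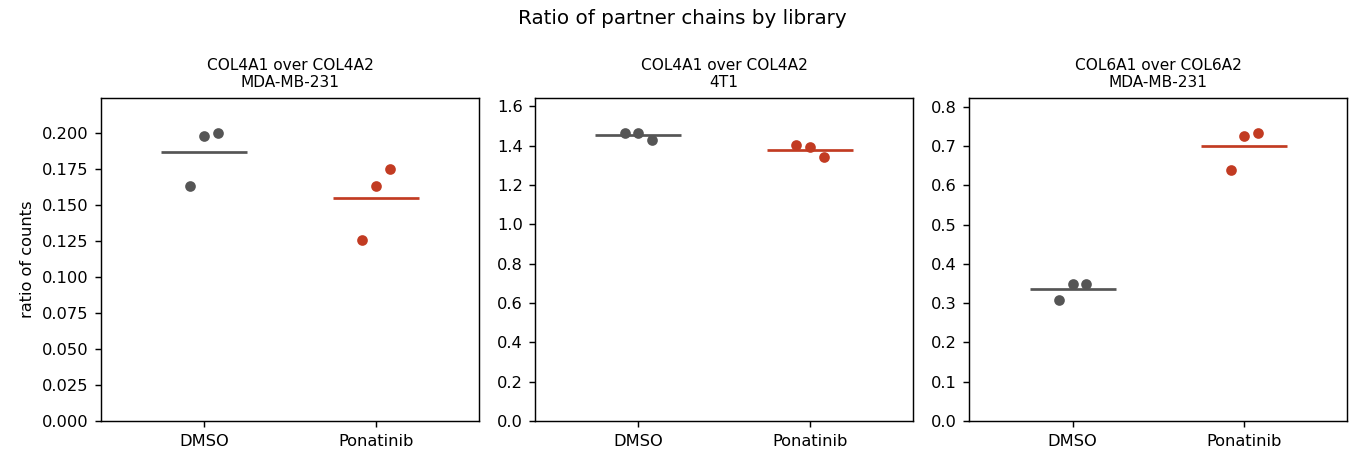
Ratio of the counts of partner chains in each library, grey for DMSO and red for ponatinib, with a bar at the mean of 3 and the vertical axis from 0. The ratio of *COL6A1* to *COL6A2* in MDA-MB-231 is higher in every ponatinib library.

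Next, the 2 responses were compared by an interaction term for line and treatment, fitted over 12488 genes whose symbol is the same in human and mouse. Of 41 matrix genes in this fit, 19 were called more negative in 4T1 and 4 more positive, against 21.9% and 20.0% of all genes in the fit. With total counts these were 18 and 6, when 2168 genes of all were more negative and 2998 more positive. Among the 26 matrix genes tested in each line apart, the difference was called for 20, against 49.6% called in either direction among 9838 such genes. It was called more negative in 4T1 for 16, and the share of such genes in that direction was not computed. Lower in both lines were 4 of 26 (against 15% of all genes), among them *TNC*, *LAMB1* and *COL8A1*, and *COL6A1*, *COL6A2*, *COL1A1*, *COL4A5* and *LAMB2* were higher in both (5 of 26, against 12.2%). Of these named genes, the difference between the lines was not called for *COL1A1* (-0.24, SE 0.17, adjusted p = 0.302), *COL4A5* (0.097, SE 0.27, adjusted p = 0.837) and *COL6A2* (0.36, SE 0.19, adjusted p = 0.13). The difference of *COL6A2* passed with the replicate block (0.36, adjusted p = 0.0392), with total counts (0.46, adjusted p = 0.0309) and without MDA-MB-231 ponatinib replicate 1 (0.45, adjusted p = 0.0462), over the alternatives 0.0309 to 0.245. Another 9 were called in 1 line alone, for which the share over all genes was not computed. *COL6A3* was called in neither, its difference between the lines passing with the replicate block (-1.22, adjusted p = 0.0342) and without MDA-MB-231 DMSO replicate 3 (-1.47, adjusted p = 0.0431) alone.

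For 7 of the 26 the calls were opposite and the difference passed, against 10.6% of all genes. *FN1*, *COL5A1*, *COL11A2*, *LAMA3* and *LAMA5* were higher in MDA-MB-231 and lower in 4T1. The differences, 4T1 minus MDA-MB-231 on the log2 scale, were -2.64 for *FN1* (adjusted p = 3.46e-10), -2.89 for *LAMA3* (adjusted p = 3.95e-07) and -2.09 for *COL11A2* (adjusted p = 9.79e-06). For *COL5A1* it was -1.33 (adjusted p = 2.75e-07) and for *LAMA5* -1.25 (adjusted p = 2.49e-06). *LAMB3* and *COL27A1* were lower in MDA-MB-231 and higher in 4T1, with differences of 0.88 (adjusted p = 1.64e-05) and 1.39 (adjusted p = 1.50e-05). These 7 differences passed under every alternative that was run, although the calls of *Lama5*, *Lamb3* and *Col27a1* within 4T1 did not. The line, the species and its reference genome cannot be told apart in this comparison.

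**Figure D5:**
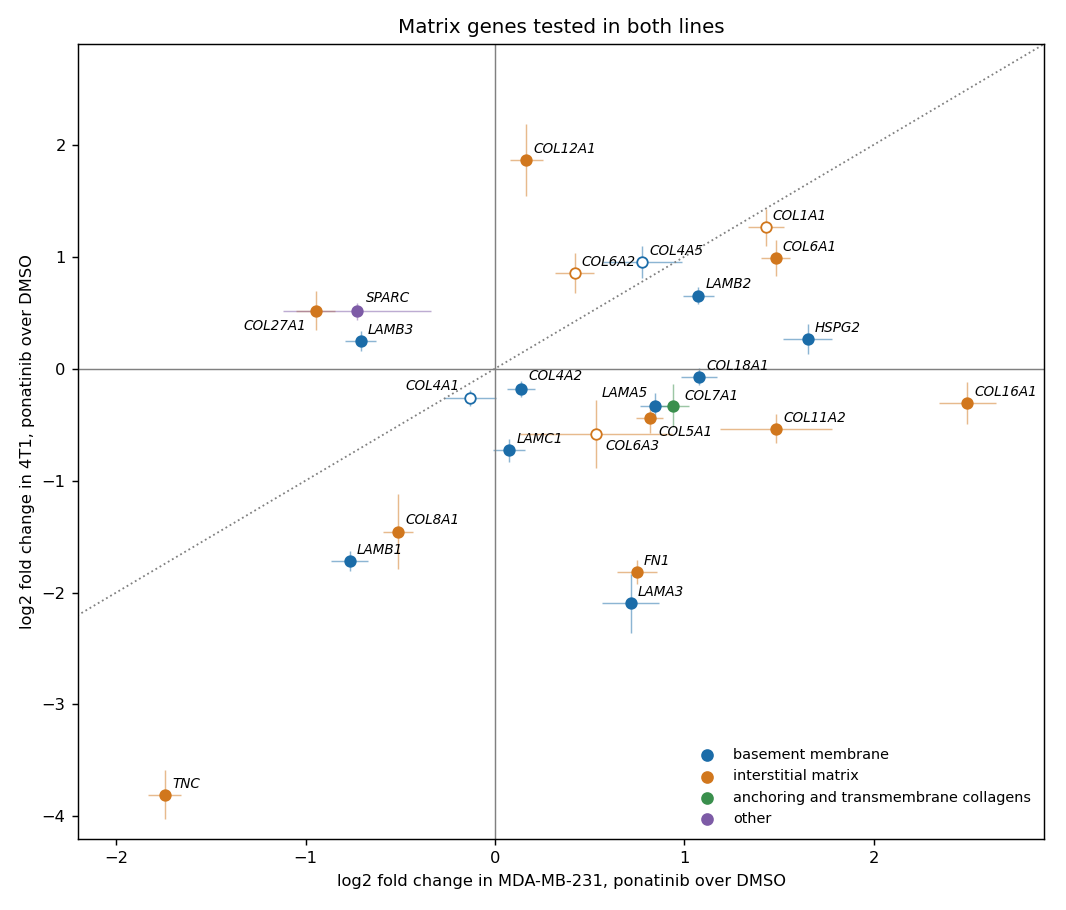
Each point is 1 gene tested in both lines (25 of the 26), with the log2 fold change in MDA-MB-231 on the horizontal and in 4T1 on the vertical axis, bars for the SE, a dotted line where both are equal and colors for the classes. Filled points had a called difference between the lines. 20 are filled, and *FN1* and *LAMA3* lie lowest among those to the right of 0 on the horizontal axis.

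Promoter windows of 250 bases before to 50 after the start were read from RefSeq (GRCh38.p14) for 30 of the 36 genes tested in MDA-MB-231. Those with no window included *LAMA1*, *COL1A1*, *COL6A1*, *COL8A1* and *COL5A2*. Motifs were searched as exact letters on both strands, and a gene with several starts was counted if any of its windows held them. The 27303 genes with a window were not restricted to protein-coding or tested genes, so they are not a background matched to the members. GGGCGG was present in 4 of 6 lower, 12 of 15 higher and 5 of 9 uncalled genes, and in 48.3% of all 27303 genes. CCAAT was in 2 of 6, 3 of 15 and 3 of 9, and in 39.7% of all genes. TATAAA was in 2 of 6, 3 of 15 and 0 of 9, and in 14% of all genes. TGACTCA was found before *LAMB3* and *LAMA3* alone, against 6.0% of all genes, and TGACGTCA before *FN1* alone, against 2.2%. The matches describe these letters and were not tested.

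Genes that fold and modify collagen chains were not all moved one way. Of 17 tested in MDA-MB-231, 6 fell and 4 rose (median log2 fold change -0.20), and of 17 in 4T1, 7 fell and 5 rose (-0.17). The background for this list and the next 3 was 26.8% of all tested genes falling and 27.2% rising in MDA-MB-231, with 29.4% and 29.5% for 4T1. *PLOD2*, a lysyl hydroxylase, fell in both lines, at -0.70 (adjusted p = 1.78e-04) in MDA-MB-231 and -0.89 (adjusted p = 2.62e-05) in 4T1. *P3H2*, a prolyl hydroxylase, rose in MDA-MB-231 (0.62) and fell in 4T1 (-0.85, adjusted p = 0.00319). *COLGALT1*, a collagen galactosyltransferase, fell in MDA-MB-231 (-0.24, adjusted p = 0.0111) and rose in 4T1 (0.65). The related *COLGALT2* rose by 1.22 on the log2 scale in MDA-MB-231 and was not tested in 4T1. The prolyl hydroxylase subunit *P4ha1* fell in 4T1 (-0.46) and was not called in MDA-MB-231 (-0.24, adjusted p = 0.0811).

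Of the genes for processing and cross-linking collagen, 4 of 13 tested fell and 5 rose in MDA-MB-231 (median -0.034), and in 4T1 5 of 9 rose and the other 4 were not called (0.35). *LOXL4*, a lysyl oxidase that cross-links collagen, was at 4.44, 5.57 and 5.47 CPM with DMSO and 52.7, 48.5 and 48.3 CPM with ponatinib in MDA-MB-231 (log2 fold change 3.27, SE 0.12, adjusted p = 3.58e-09), and it rose in 4T1 as well (0.37, adjusted p = 4.67e-04). *TGM2*, a transglutaminase, moved in opposite directions, at 325, 312 and 331 CPM with DMSO and 71.6, 66.6 and 73.2 CPM with ponatinib in MDA-MB-231 (log2 fold change -2.19, SE 0.076, adjusted p = 2.82e-09). The 4T1 libraries had 78.4, 63.1 and 68.8 CPM with DMSO and 211, 176 and 181 CPM with ponatinib (log2 fold change 1.43, SE 0.094, adjusted p = 1.22e-08). DMSO and ponatinib libraries were separate for *LOXL4* in MDA-MB-231 and for *TGM2* in both lines. *PCOLCE*, which enhances procollagen cleavage, rose in both lines, at 1.06 and 0.63, as did the procollagen proteinase *BMP1*, at 0.91 (adjusted p = 4.48e-06) and 0.45 (adjusted p = 0.0059).

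Receptors of these proteins moved both ways as well. Of 18 tested in MDA-MB-231, 8 rose and 5 fell (median 0.15), and of 20 in 4T1, 10 rose and 8 fell (0.26). The chains of the laminin-332 receptor parted in both lines. *ITGA6* fell in MDA-MB-231 (-1.22, adjusted p = 2.37e-06) and 4T1 (-1.02, adjusted p = 1.37e-07), while *ITGB4* rose in MDA-MB-231 (2.0, adjusted p = 1.02e-08) and 4T1 (1.37, adjusted p = 3.51e-08). The syndecan *SDC2* also rose in both, at 1.34 and 0.86. In 4T1, *Itga3*, an alpha chain for laminins, was at 1247, 1163 and 1113 CPM with DMSO and 486, 423 and 435 CPM with ponatinib (log2 fold change -1.39, SE 0.083, adjusted p = 4.77e-09), every ponatinib library being lower, and it was not called in MDA-MB-231 (-0.015, adjusted p = 0.875). *Itga1*, an alpha chain for collagens, rose by 2.84 in 4T1 and was not called in MDA-MB-231 (0.28, adjusted p = 0.062). *Itgb6*, a beta chain for fibronectin and latent TGF-β, rose by 2.26 in 4T1 and was not tested in MDA-MB-231.

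TGF-β ligands, receptors and SMADs, known regulators of matrix genes, had 7 of 22 tested higher and 6 lower in MDA-MB-231 (median -0.075), and 6 of 21 higher and 11 lower in 4T1 (-0.20). The ligand *TGFB2* rose in both lines, at 1.16 (adjusted p = 3.44e-06) and 1.81 (adjusted p = 4.71e-09). *SMAD6*, an inhibitory SMAD, also rose in both, at 3.0 and 1.42. *SMURF2*, a ubiquitin ligase of the pathway, fell in both lines, at -1.22 (adjusted p = 1.91e-06) and -0.28 (adjusted p = 0.00979), and so did *INHBA*, the activin A subunit, at -0.96 (adjusted p = 1.76e-05) and -1.43 (adjusted p = 9.36e-06).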

How the data were processed

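According to the methods, the authors removed adapters and poly-N reads, used HISAT2 against hg38 or GRCm39 and made the deposited values, raw counts per gene, with HTSeq. Versions, annotation and strand setting are not given in the sources used here. Identifiers were matched to GENCODE v44 (81.9%, with 99.3% of counts) and vM39 (91.1%, with 99.8% of counts). The counts, 15012884 to 18951493 per library, were fitted in each line with edgeR 4.0.16 in R 4.3.3 (quasi-likelihood test after filterByExpr and TMM, called at an adjusted p under 0.05, Benjamini-Hochberg over all tested genes). CPM was computed from the counts. Replicates varied by a common biological coefficient of 0.0990 (MDA-MB-231) and 0.0869 (4T1). Steps were tested on simulated data. Chi-square per gene between replicates was 2.93 to 16.5, so no library was a copy.

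Deviations of same-numbered libraries from their group means correlated at 0.345, 0.111 and 0.133 for MDA-MB-231, and for 4T1 at 0.213, 0.119 and 0.115. On these values alone, the numbers were taken as possible pairs. Libraries with different numbers were not compared in this way, and the sources do not say what a number marks. The fits reported have no block for the replicate number, and the fit with it is given where it changes a call. Alternatives were DESeq2 1.42.0, its size factors in edgeR, total counts, the replicate number as a block, each library left out in turn, no filter, and a minimum of 10 counts in all libraries fitted. Values in every library are given for up to 15 called members per line with the largest change and at least 10 CPM in the higher group, the 5 with the highest level per kilobase, and up to 3 genes per list and line are named, with the same gene in the other line. Members with opposite calls and the same gene in the other line are given beside them. *COL4A2* in every library and single marker genes were added after values were seen. Single values of 1 member are not reported here. Members and lists were chosen with earlier results of these data known.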

Additional observations from a re-analysis of the deposited data

Results flagged for a closer look

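The response of 23 matrix genes differed between the lines in the interaction test (edgeR, adjusted p under 0.05), against 41.9% of the 12488 genes in that fit. Differences are log2 fold changes in 4T1 minus those in MDA-MB-231, each group having 3 libraries.

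Among laminins and other basement membrane genes, the difference was -2.89 for *LAMA3*, -1.25 for *LAMA5*, -1.02 for *LAMB1*, -0.88 for *LAMC1*, -0.49 for *LAMB2* and 0.88 for *LAMB3*. It was -1.46 for *HSPG2*, -1.22 for *COL18A1* and -0.39 for *COL4A2*. Among interstitial genes it was -2.87 for *COL16A1*, -2.64 for *FN1*, -2.13 for *TNC*, -2.09 for *COL11A2*, -1.33 for *COL5A1*, -1.02 for *COL8A1*, -0.56 for *COL6A1*, 1.39 for *COL27A1* and 1.62 for *COL12A1*. For the anchoring collagen *COL7A1* it was -1.34, and for *SPARC* 1.17.

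For *NID1* (-2.94), *NID2* (-4.08) and *FBN1* (-1.75) 1 of the lines had few counts: *NID1* had 24 counts over the 6 MDA-MB-231 libraries, and *FBN1* had 32 and *NID2* 7 over the 6 4T1 libraries, *NID2* with 0 under ponatinib, so its fitted value depends on the prior count. *NID2* passed without MDA-MB-231 DMSO replicate 3, MDA-MB-231 ponatinib replicate 3 or 4T1 DMSO replicate 3, and did not pass when any other library was left out, with values of -4.59 to -3.42 over all 12 (adjusted p over the alternatives 0.0138 to 0.128). *FBN1* did not pass with total counts (-1.66, adjusted p = 0.0527) or without 4T1 DMSO replicate 2 (-1.14, adjusted p = 0.255), 4T1 ponatinib replicate 2 (-1.37, adjusted p = 0.11) or 4T1 ponatinib replicate 3 (-1.27, adjusted p = 0.116), over the alternatives 0.00264 to 0.255. *COL6A1* did not pass without 4T1 DMSO replicate 2 (-0.37, adjusted p = 0.0923) or 4T1 ponatinib replicate 2 (-0.42, adjusted p = 0.053), over the alternatives 0.00246 to 0.0923. The 20 other differences passed under every alternative in which the gene was tested. With a minimum of 10 counts in all libraries only 24 members were tested, and *NID1* and *COL12A1* were not among them. Groups of 3 libraries were too small for a search of single libraries that stand apart.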

How the results depend on the processing

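All 84 counts of called members under the alternatives were within 1.5 times those reported. Of 1308 alternative values of 95 member results, 1238 kept their direction and their side of the threshold, 36 lost the call, 28 gained one and 6 changed sign, none of the 6 being a call. Leaving out 1 library gave 8 to 9 lower and 16 to 17 higher members in MDA-MB-231, 12 to 14 and 9 to 12 in 4T1, and 16 to 20 and 4 to 5 between the lines. With the replicate number as a block, members lower and higher were 9 and 20 in MDA-MB-231, then 14 and 12 in 4T1, and 20 and 6 for the difference. Beyond the calls of single genes given with them, the block added the differences of *COL6A2* (0.36, adjusted p = 0.0392, over the alternatives 0.0309 to 0.245), *COL6A3* (-1.22, adjusted p = 0.0342, over the alternatives 0.0342 to 0.182) and *COL15A1* (1.47, adjusted p = 0.0344, over the alternatives 0.0090 to 0.184), and it changed no other call among the 95 results. With total counts the class medians became 0.23 and 0.84 for basement membrane and interstitial matrix in MDA-MB-231 and -0.10 for basement membrane in 4T1. With *COL7A1*, *COL17A1*, *SPARC* and *COL8A1* counted with the basement membrane, the interstitial median in 4T1 was -0.077. *Col18a1* in 4T1 turned to 0.044 with total counts. Leave-one-out ranges that crossed 0 were -0.26 to 0.0014 for *COL4A1* and -0.38 to 0.49 for *COL5A2* in MDA-MB-231, -0.26 to 0.47 for *Col9a3* in 4T1, and, between the lines, -0.0015 to 0.34 for *COL4A5*. The cause of these changes was not tested. At these depths a difference could not be tested for the 27 and 31 members with too few counts. Strand was not stated, and over 10% of exonic bases lay under an opposite-strand gene for 4 tested members in MDA-MB-231 (*NID2*, *LAMA1*, *HSPG2*, *COL18A1*) and 2 in 4T1 (*Col18a1*, *Col9a3*).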
